A study of Mus musculus with 38 samples.

Results

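Insulin and the insulin-like growth factors (IGF) pass their signal through a short chain of proteins, and 9 genes of that chain are described here in brown adipose tissue. They are the receptors Insr and Igf1r, the adaptors Irs1 and Irs2, the regulatory subunit Pik3r1, the kinases Akt1 and Akt2, the transcription factor Foxo1 and the inhibitory adaptor Grb14. Their probes were matched by name alone: a probe belongs to a gene where the gene name in the scanner file equals one of these symbols. All 9 were found among the 29411 gene names of the array, and all 9 were among the 21862 names that were bright enough to be tested. Each gene is given by the probe with its highest mean signal, as the log2 of the processed signal minus the log2 of the 75th percentile of that signal on the same array. A value of 0 therefore means as bright as the spot at the 75th percentile, and a difference of 1 means a doubling within the array. Levels of different genes come from different probes and were not set against each other.

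Binding of insulin or IGF to its receptor switches on the receptor's tyrosine kinase, which marks the IRS adaptors. The marked adaptors recruit phosphatidylinositol 3-kinase, the lipid that this enzyme makes brings the AKT kinases to the membrane, and AKT keeps FOXO1 out of the nucleus. In brown fat, the heat-producing adipose tissue, this chain drives glucose uptake and lipid synthesis, and IRS and AKT proteins take part in the making of brown adipocytes.

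The study hybridised total RNA of C57BL/6J brown adipose tissue to 38 arrays with 1 colour. Mice weaned at 3 to 4 weeks of age had been put on a low fat diet with 10% of its calories from fat (LFC) or on a high fat diet with more sucrose and 60% of its calories from fat (HFC). The other 3 groups received the high fat diet together with Kal-1, a plant-based formulation, at 5, 20 or 75 µg (HF5, HF20 and HF75). LFC and HFC have 10 arrays each (days 6, 10 and 14, then every 3 weeks from week 0 to week 18), and each Kal-1 group has 6 arrays, at weeks 3 to 18. Day 14 and week 0 are the same day on diet and are counted here as separate time points. The labels give 1 array per group and time point, although the design text of the series speaks of biological replicates, and they do not say whether an array holds 1 animal or a pool. The time points of a group therefore serve as its replicates. Fits with the time point as a block take out the changes over time that the groups share. Their errors hold how far a difference between groups varies from time point to time point, together with the spread between animals.

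The probes behind the values on which the results turn are shown here by their sequence, written from the 5′ end, so that the transcript region measured can be found again. For Akt2, Grb14, Igf1r and Insr the first 30 bases of the 60-base probe in use are given, and for Akt2 and Insr the whole of a further probe, whose values are compared with the probe in use below.
Akt2, probe in use: ggaagccaaccttggctgttacacatctca
Akt2, further probe: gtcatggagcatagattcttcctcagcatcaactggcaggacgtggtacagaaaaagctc
Grb14, probe in use: taggatggctgtttagccaaactgtgtgtc
Igf1r, probe in use: gtagtcgttgacgaagctctggtttacaag
Insr, probe in use: cagattctagctaatgaattcttgacaaca
Insr, further probe: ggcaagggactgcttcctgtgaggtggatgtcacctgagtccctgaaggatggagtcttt

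The arrays differed widely in brightness. The dimmest had a 75th percentile of 35.1 intensity units and the brightest one of 1209, the middle of the 38 arrays was at 183.4, and 36.62% to 78.77% of spots were well above background. A set of 11 arrays lay above 600 units, a boundary chosen after the arrays were seen, and the other 27 lay at or below 429.8. The bright arrays were 4 of LFC, 2 of HFC, 0 of HF5, 4 of HF20 and 1 of HF75, so that brightness was uneven between the groups that the study compared. The brown adipocyte markers marked the tissue: Ucp1, Cidea, Cox7a1, Cox8b, Pparg and Adipoq were well above background on 38 of 38 arrays. In whole tissue, fewer cells of a type and less RNA per cell cannot be told apart. The HF75 array of week 3 stood apart from the other 10 bright arrays, and results that rest on it are given with and without it. It had the lowest sum of all 38 arrays over the 5 brown adipocyte markers that were saturated on none (log2 4.205, against 5.81 to 6.39 on the other bright arrays). That linear sum is mostly the signal of Pparg, whose mean was log2 5.28 against -1.61 to 1.77 for the rest of the 5. Its endothelial sum was log2 6.99 against 4.30 to 5.75, and its macrophage sum 4.40 against 1.64 to 3.58.

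The brightness of the array went with the level of most of these genes. Insr, the insulin receptor, was at log2 -0.64 to 0.18 with a median of -0.07 on the 11 bright arrays, and at -4.41 to -0.91 with a median of -1.87 on the other 27. Irs1, the adaptor of both receptors, was at 0.78 to 2.53 with a median of 2.10 on the bright arrays and at -2.24 to 0.52 with a median of -0.96 on the others. For both genes every bright array lay above every other array, which held for 0.553% of all genes tested. Akt2, the AKT kinase tied most closely to glucose uptake, was at -0.21 to 4.05 (median 3.29) on the bright arrays and at -1.18 to 1.78 (median 0.36) on the others. Grb14, which binds the activated insulin receptor and blocks its kinase, was at -0.59 to 3.88 (median 3.23) against -1.10 to 2.08 (median 0.61). For Akt2 and Grb14 the overlap came from the HF75 array of week 3 alone. Without that array the bright arrays lay at 2.59 to 4.05 for Akt2 and at 2.61 to 3.88 for Grb14, above all the others. The share of all genes that did so without that array was not computed.

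Igf1r, the receptor for IGF, ran the other way. It lay at log2 -1.73 to 1.27 (median -0.85) on the bright arrays and at -1.15 to 1.40 (median 0.74) on the others, and the ranges overlapped. Without the HF75 array of week 3 the bright arrays reached no higher than -0.28, still within the range of the others. The remaining 4 genes overlapped widely between bright and other arrays. Irs2 lay at 1.41 to 4.24 (median 3.09) against 1.41 to 3.81 (median 2.19), and Pik3r1, a regulatory subunit of phosphatidylinositol 3-kinase, at -1.49 to 2.27 (median 0.69) against -0.69 to 1.66 (median 0.42). Akt1 lay at 2.72 to 3.74 (median 3.00) against 2.20 to 4.18 (median 3.34), and Foxo1, which turns on genes of fasting when insulin is low, at 1.54 to 3.21 (median 2.59) against 1.95 to 3.41 (median 2.74).

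In a fit over all genes of the level against the log2 of the 75th percentile, with the 5 groups in the model, 55.1% of genes passed an adjusted p of 0.05 with limma (60.5% an unadjusted one), and 5 of the 9 genes did. The level already has that percentile subtracted, so the 2 sides of the fit are not independent. The slopes describe only how the relative levels went with brightness. Per doubling of brightness Insr rose by 0.57 (SE 0.08, adjusted p = 3.87e-07), Irs1 by 0.67 (SE 0.11, adjusted p = 1.04e-05), Akt2 by 0.47 (SE 0.12, adjusted p = 0.00169) and Grb14 by 0.32 (SE 0.13, adjusted p = 0.0286). Igf1r fell by 0.21 per doubling (SE 0.09, adjusted p = 0.0473). Irs2, Pik3r1, Akt1 and Foxo1 did not pass. The share of these genes called was close to that of all genes. The summed markers of other cell types moved with brightness as well: the 6 endothelial markers summed to 4.30 to 6.99 (median 4.71) on the bright arrays and 6.60 to 8.24 (median 7.72) on the others, and the 7 white adipocyte markers to 1.25 to 4.12 against -1.005 to 2.02. Saturated probes lose signal relative to the 75th percentile on bright arrays whatever the RNA, so the brown adipocyte and erythroid sums leave out the markers saturated on any array (Fabp4 was so on 38 arrays, Hbb-b1 on 33 and Hba-a1 on 29). The 5 erythroid markers left summed to -0.11 to 2.25 on the bright arrays against 1.71 to 7.18, and the 5 brown adipocyte markers left to 4.205 to 6.39 against 4.37 to 6.06. The part of cell makeup in the levels of the signalling genes was not tested.

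**Figure D1:**
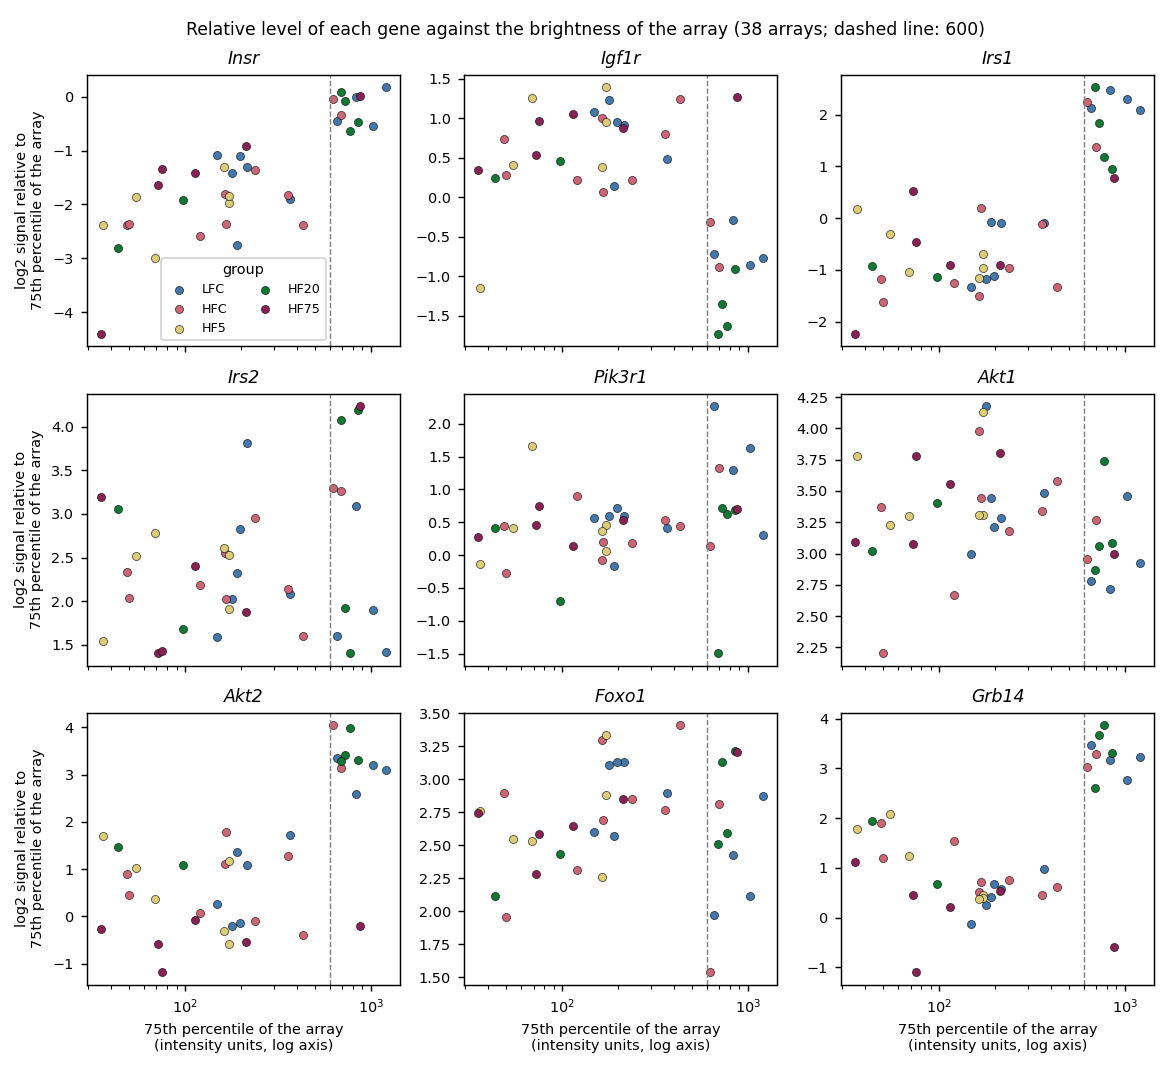
Log2 level of each of the 9 genes relative to the 75th percentile of its array (y axis) against that 75th percentile in intensity units on a log axis (x axis), with 1 point per array coloured by group and a dashed line at 600 units. Insr and Irs1 lay higher on all 11 arrays above 600 units than on the other 27, while the ranges of Foxo1 and Akt1 overlapped.

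Signal near the floor limits Insr most. Its probe was well above background on 34 of 38 arrays, and it was not on the week 9 arrays of HFC, HF20 and HF75 and on the week 18 array of HF5. Irs1 was well above background on 37 arrays, all but the HF75 array of week 9, and the other 7 genes were so on 38. No probe in use was saturated.

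Further probes of the same genes bear on how far the levels can be read. The further Akt2 probe printed above followed the probe in use over the 38 arrays with r = 0.96. The further Igf1r probes had r = 0.80 and 0.66 with theirs, but parted from it on the HF75 array of week 3. The probe in use read log2 1.27 there. The first further probe read -1.36 or less on every bright array, below all the others. The second (mean -3.55, well above background on 28 arrays) read -3.73 or less on the bright arrays, against a median of -2.66 on the others. The further Insr probe printed above did not follow its partner (r = -0.27): its mean was log2 -5.26, and it was well above background on 12 arrays. The further Irs1 probe (r = 0.44, mean -4.19, above background on 18 arrays) was likewise dim. The further Akt1 probe (r = 0.08, mean -2.74) was well above background on 35 arrays and still did not follow the probe in use. The further Foxo1 probe had r = 0.50, and the 3 further Pik3r1 probes had r = 0.46, 0.39 and 0.29. Grb14 and Irs2 have 1 probe each. These correlations are descriptions over arrays that share their brightness. For Insr, Irs1, Akt1 and Pik3r1 the result is that of 1 probe, as it is for Grb14 and Irs2.

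The first question of the design is what the high fat diet did against the low fat diet. None of the 9 genes passed the test between HFC and LFC: 0 reached an adjusted p of 0.05 in limma with the time point as a block over 20 arrays, and 0% of all genes did. At an unadjusted p under 0.05 the fit called 6.98% of all genes and 1 of the 9, Pik3r1. The group ranges overlapped for every gene, as they did for all genes tested.

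Of the receptors, Insr was at log2 -2.76 to 0.18 (median -1.09) in LFC and at -2.59 to -0.05 (median -2.10) in HFC. The mean difference was -0.71 (SE 0.39, 95% interval -1.55 to 0.13, adjusted p = 0.643), and HFC was lower at 6 of 10 time points. Igf1r was at -0.85 to 1.24 (median 0.31) in LFC and at -0.87 to 1.24 (median 0.25) in HFC, with a difference of 0.12 (SE 0.32). The ranges of Igf1r were almost the same on both diets.

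Of the adaptors, Irs1 was at -1.33 to 2.48 (median -0.08) in LFC and at -1.63 to 2.24 (median -1.07) in HFC, a difference of -0.93 (SE 0.57), lower at 7 of 10 time points. Irs2, the adaptor that insulin and fasting regulate in many tissues, was at 1.41 to 3.81 (median 2.05) and at 1.61 to 3.29 (median 2.26), a difference of 0.17 (SE 0.23), higher at 7 of 10. Neither adaptor passed the test, and both spanned more than a doubling within each diet. Pik3r1 was at -0.17 to 2.27 (median 0.59) in LFC and at -0.28 to 1.32 (median 0.32) in HFC. Its difference of -0.44 (SE 0.19, 95% interval -0.86 to -0.01) had the smallest p of the 9, with p = 0.045 before and 0.643 after adjustment, and HFC was lower at 7 of 10 time points.

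The kinases, the factor below them and the inhibitor did not pass either. Akt1 was at 2.72 to 4.18 (median 3.25) in LFC and at 2.20 to 3.98 (median 3.30) in HFC, a difference of -0.05 (SE 0.17). Akt2 was at -0.21 to 3.34 (median 1.54) and at -0.40 to 4.05 (median 1.001), a difference of -0.40 (SE 0.55) with 5 time points each way. Foxo1 was at 1.97 to 3.13 (median 2.74) and at 1.54 to 3.41 (median 2.79), a difference of -0.03 (SE 0.24). Foxo1 and Akt1 had narrow ranges and Akt2 a wide one in both groups. Grb14 was at -0.12 to 3.47 (median 0.83) in LFC and at 0.45 to 3.28 (median 0.98) in HFC, a difference of -0.14 (SE 0.42).

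The spread of the paired differences followed brightness for several genes. At 6 time points the LFC and HFC arrays were both bright or both not, and at day 10 and weeks 0, 9 and 12 only 1 of the pair was bright. HFC minus LFC for Irs1 ran from -0.75 to 0.27 at the first 6 and from -3.74 to 2.33 at the other 4. For Akt2 it ran from -0.45 to 1.33 and from -3.50 to 2.97, and for Grb14 from -0.52 to 1.31 and from -2.62 to 2.47. The largest gaps between diets in these 3 genes thus lay at time points where the brightness of the pair differed. Pik3r1 behaved less so, at -0.95 to 0.38 and -1.18 to 0.15. On day 14 and week 0, the same day on diet, Akt2 was at 1.72 and 3.09 in LFC and at 1.28 and -0.40 in HFC.

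The test called no difference in time course between the diets either. The product of diet and day gave 0 of the 9 genes and 0% of all genes, and at an unadjusted p under 0.05 again 0 of the 9 beside 15.3% of all genes. The trend over days on both diets together gave 0 of the 9 and 1.63% of all genes, and unadjusted 1 of the 9 beside 21.3%. That gene was Akt2, at -0.35 per 28 days (SE 0.17, unadjusted p = 0.0452, adjusted p = 0.223). On weeks 3 to 18 alone, in the fit of all 5 groups that the doses use, 0.00915% of all genes and 0 of the 9 passed. Unadjusted, 14.5% of all genes and 2 of the 9 did, Insr and Pik3r1. Pik3r1 was there lower in HFC at 6 of 6 weeks, a pattern seen in 4.33% of all genes, with a difference of -0.76 (SE 0.31, adjusted p = 0.334). Insr differed by -1.04 (SE 0.48, adjusted p = 0.337) and Irs1 by -1.40 (SE 0.68, adjusted p = 0.347).

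**Figure D2:**
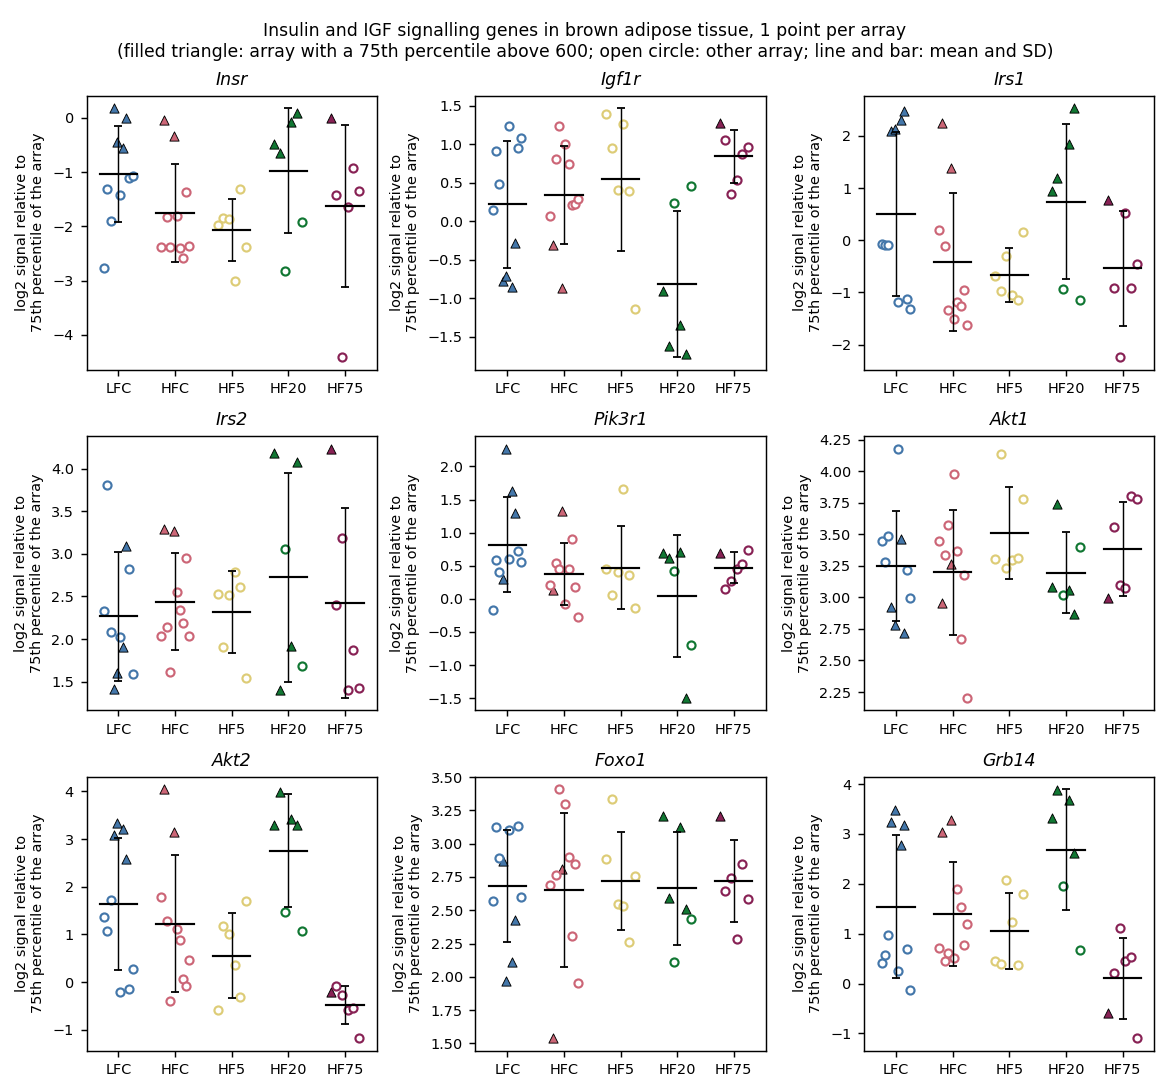
Log2 level of each of the 9 genes relative to the 75th percentile of the array (y axis) in the 5 groups (x axis), with 1 point per array over all time points, filled triangles for arrays above 600 intensity units, open circles for the others, and lines for the mean and SD. Akt2 in HF75 lay between -1.18 and -0.08 and below every HF20 array, which lay between 1.08 and 3.98.

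The second question is what Kal-1 did on top of the high fat diet. Each dose was set against HFC over weeks 3 to 18, with the time point as a block and 30 arrays in the fit. None of the 9 genes passed at 5, 20 or 75 µg, and 0% of all genes passed at each dose. At an unadjusted p under 0.05 the fits called 0 of the 9 at 5 µg beside 5.45% of all genes, 3 at 20 µg beside 33.2% and 2 at 75 µg beside 9.14%. The 3 comparisons share the 6 HFC arrays, so they are given side by side and not as support for one another.

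Akt2 was at log2 -0.09 to 3.14 (median 0.67) in HFC, -0.59 to 1.70 (median 0.69) in HF5, 1.08 to 3.98 (median 3.30) in HF20 and -1.18 to -0.08 (median -0.40) in HF75 over these weeks. HF20 was thus the group with the highest Akt2 values and HF75 that with the lowest. Against HFC, Akt2 differed by -0.37 at 5 µg, by 1.83 at 20 µg (SE 0.64, adjusted p = 0.118) and by -1.41 at 75 µg (SE 0.64, adjusted p = 0.539). It was higher at 6 of 6 weeks at 20 µg, as were 3.32% of all genes, and lower at 6 of 6 weeks at 75 µg, as were 2.52%. Neither difference passed the test.

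Grb14 too had its highest median in HF20 and its lowest in HF75. It was at 0.51 to 3.28 (median 1.36) in HFC, 0.37 to 2.08 (median 0.85) in HF5, 0.67 to 3.88 (median 2.96) in HF20 and -1.10 to 1.11 (median 0.33) in HF75. Against HFC it differed by -0.47 at 5 µg, by 1.15 at 20 µg (SE 0.56, adjusted p = 0.153) and by -1.42 at 75 µg (SE 0.56, adjusted p = 0.538), the last with lower values at 6 of 6 weeks. Igf1r had its lowest median in HF20 and its highest in HF75, at -0.87 to 0.997 (median 0.25) in HFC, -1.15 to 1.40 (median 0.68) in HF5, -1.73 to 0.46 (median -1.13) in HF20 and 0.35 to 1.27 (median 0.92) in HF75. Its differences from HFC were -1.08 at 20 µg (SE 0.49, adjusted p = 0.135) and 0.58 at 75 µg, and all 4 groups overlapped.

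Irs1 was at -1.63 to 1.38 (median -1.22) in HFC, -1.15 to 0.17 (median -0.83) in HF5, -1.15 to 2.53 (median 1.07) in HF20 and -2.24 to 0.78 (median -0.68) in HF75. At 20 µg it differed from HFC by 1.60 (SE 0.68, adjusted p = 0.125). Insr was at -2.59 to -0.34 (median -2.08), -3.00 to -1.31 (median -1.92), -2.82 to 0.08 (median -0.56) and -4.41 to 0.01 (median -1.38) in the same order of groups. For both genes the highest values in HF20 and HFC were on bright arrays. Irs2 had medians of 2.44, 2.53, 2.49 and 2.14 in HFC, HF5, HF20 and HF75, Pik3r1 of 0.31, 0.39, 0.52 and 0.49, Akt1 of 3.22, 3.31, 3.07 and 3.33, and Foxo1 of 2.83, 2.65, 2.55 and 2.69. These 4 genes had close medians and overlapping ranges in all 4 groups on the high fat diet. At 5 µg the smallest p of the 9 was that of Akt1, with a difference of 0.40 (SE 0.23, adjusted p = 0.822).

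Against LFC, none of the 9 genes passed at any dose, beside 0.00915% of all genes at 5 µg, 0% at 20 µg and 0.0274% at 75 µg. Unadjusted, 2 of the 9 were called at 5 µg, 2 at 20 µg and 3 at 75 µg, beside 13.3%, 4.95% and 18.9% of all genes. LFC in these weeks held 3 of the bright arrays. At 75 µg Akt2 differed from LFC by -1.98 (SE 0.64, adjusted p = 0.215) and Grb14 by -1.60 (SE 0.56, adjusted p = 0.215), with Grb14 lower at 6 of 6 weeks, as were 2.69% of all genes. At 5 µg Insr differed by -1.30 (SE 0.48, adjusted p = 0.366) and was lower at 6 of 6 weeks, a pattern of 1.28% of all genes. At 20 µg Pik3r1 differed by -1.14 (SE 0.31, unadjusted p = 0.00118, adjusted p = 0.756), with values of -1.49 to 0.71 in HF20 and 0.56 to 2.27 in LFC, and it was lower at 5 of 6 weeks. The Pik3r1 ranges overlapped only narrowly, but the difference did not pass over all genes.

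Between doses, 3 of the 9 genes passed, all in HF75 against HF20. In that comparison 25.6% of all genes passed (42.1% unadjusted), so 3 of 9 is close to the share of all genes. Akt2 was lower in HF75 by 3.24 on the log2 scale (difference -3.24, SE 0.64, 95% interval -4.55 to -1.92, adjusted p = 0.0135). It was lower at 6 of 6 weeks, as were 11.9% of all genes, and the groups did not overlap, as for 3.76% of all genes in that direction. The gap between the highest HF75 array (-0.08, at week 6) and the lowest HF20 array (1.08, at week 18) was more than a doubling.

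Grb14 was lower in HF75 (difference -2.58, SE 0.56, adjusted p = 0.0143) at 6 of 6 weeks, with overlapping ranges. Igf1r was higher in HF75 (difference 1.66, SE 0.49, 95% interval 0.65 to 2.67, adjusted p = 0.0226) at 6 of 6 weeks, as were 10.8% of all genes, also with overlapping ranges. The other 6 genes did not pass: Irs1 differed by -1.27 (adjusted p = 0.155), Insr by -0.65, Irs2 by -0.30, Pik3r1 by 0.43, Akt1 by 0.19 and Foxo1 by 0.06. The transcripts of an insulin receptor inhibitor and of an insulin-activated kinase were thus lower together, and that of the IGF receptor was higher. In an F test over the 3 doses, which 13.4% of all genes passed (37.3% unadjusted), the same 3 genes passed (Akt2 and Grb14 with adjusted p = 0.0343, Igf1r with 0.0477). HF20 against HF5 gave 0 of the 9 genes and 0% of all genes, and unadjusted 4 of the 9 beside 36.2% of all genes, with Akt2 at 2.20 (adjusted p = 0.067), Grb14 at 1.63 (adjusted p = 0.0725) and Igf1r at -1.36 (adjusted p = 0.0754). HF75 against HF5 and the trend over the order of doses also gave 0 of 9 and 0% of all genes, and unadjusted 0 of 9 beside 2.31% and 3.91%. Akt2 was at -1.03 and Grb14 at -0.95 in HF75 against HF5.

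The further probes moved the same way as those in use. The further Akt2 probe differed by -3.35 between HF75 and HF20, and the further Igf1r probes by 1.29 (adjusted p = 0.0389) and 1.39 (adjusted p = 0.0748). For Grb14 there was no further probe to compare.

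Brightness separates these groups too, since 4 of 6 HF20 arrays and 1 of 6 HF75 arrays were bright. The arrays of both doses were both bright at week 3 and both not at weeks 9 and 18. At weeks 3, 9 and 18, HF75 minus HF20 was -3.51, -1.74 and -2.26 for Akt2. It was -3.90, -0.84 and -1.77 for Grb14 and 2.18, 0.11 and 0.50 for Igf1r. Week 3 rests on the HF75 array that stood apart. At weeks 6, 12 and 15, where only HF20 was bright, the differences were -4.07 to -3.83 for Akt2, -3.67 to -2.07 for Grb14 and 1.89 to 2.68 for Igf1r. The direction was therefore the same at every week for the 3 genes, and the size at weeks 9 and 18 was smaller than at the other weeks.

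With brightness in the fit no gene of the 9 passed. The share of all genes that passed is not given for the settings of this paragraph. A loss shared by most genes is therefore not told apart from one particular to these genes. With the log2 of the 75th percentile as a covariate the differences were -2.27 for Akt2 (adjusted p = 0.16), -2.07 for Grb14 (adjusted p = 0.175) and 1.08 for Igf1r (adjusted p = 0.235). Without the bright arrays they were -1.59, -0.83 and 0.18, none near the threshold, but HF20 then held only its arrays of weeks 9 and 18. Without the HF75 array of week 3 they were -3.12 for Akt2 and -2.26 for Grb14 (adjusted p = 0.0441 for both) and 1.51 for Igf1r (adjusted p = 0.059), so that Igf1r no longer passed. None of the 9 passed without week 6, 12 or 15, the weeks at which only the HF20 array was bright, nor without the HF20 array of week 6 or of week 15 alone. Of the marker lists, the endothelial sum lay at 4.30 to 8.12 (median 4.46) in HF20 and at 6.99 to 8.09 (median 7.70) in HF75, the white adipocyte sum at 0.43 to 3.84 (median 2.83) and at -0.78 to 3.63 (median -0.21), and the sum of the 5 brown adipocyte markers without saturation at 5.30 to 6.39 and at 4.205 to 5.75. Of 6 endothelial markers 3 were called higher in HF75, of 11 brown adipocyte markers 3 lower, of 5 white adipocyte markers tested 1 higher and 3 lower, and of 7 macrophage markers 1 lower. None of the 10 skeletal muscle, 7 erythroid or 10 lymphocyte markers was called, with medians of -0.90, 0.99 and 0.49 beside 0.29 over all genes. Their part in the differences of Akt2, Grb14 and Igf1r was not tested.

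**Figure D3:**
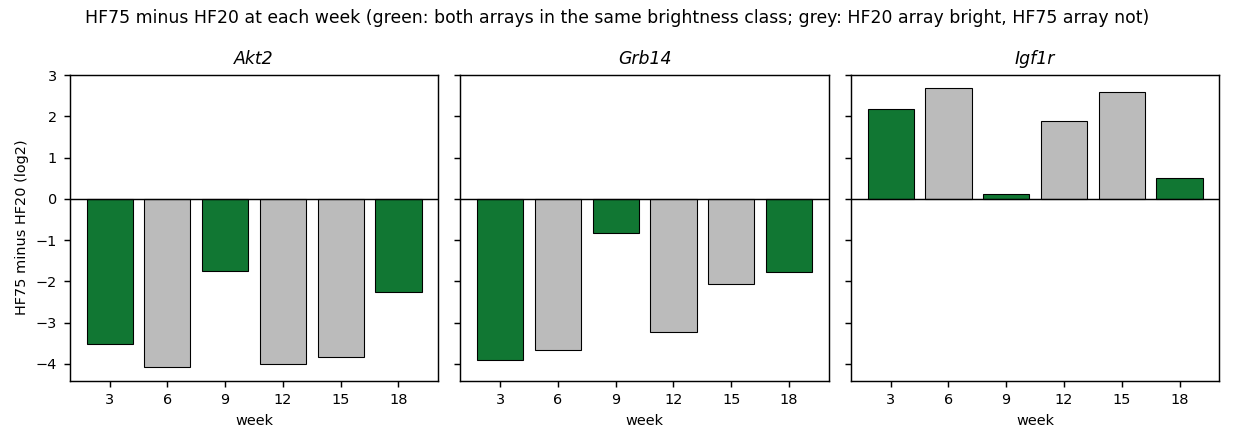
Log2 difference of HF75 minus HF20 (y axis, bars from 0) at each week (x axis) for Akt2, Grb14 and Igf1r, green where both arrays were bright or both were not and grey where only the HF20 array was bright. Akt2 and Grb14 were lower and Igf1r higher in HF75 at all 6 weeks, by the least at week 9.

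**Figure D4:**
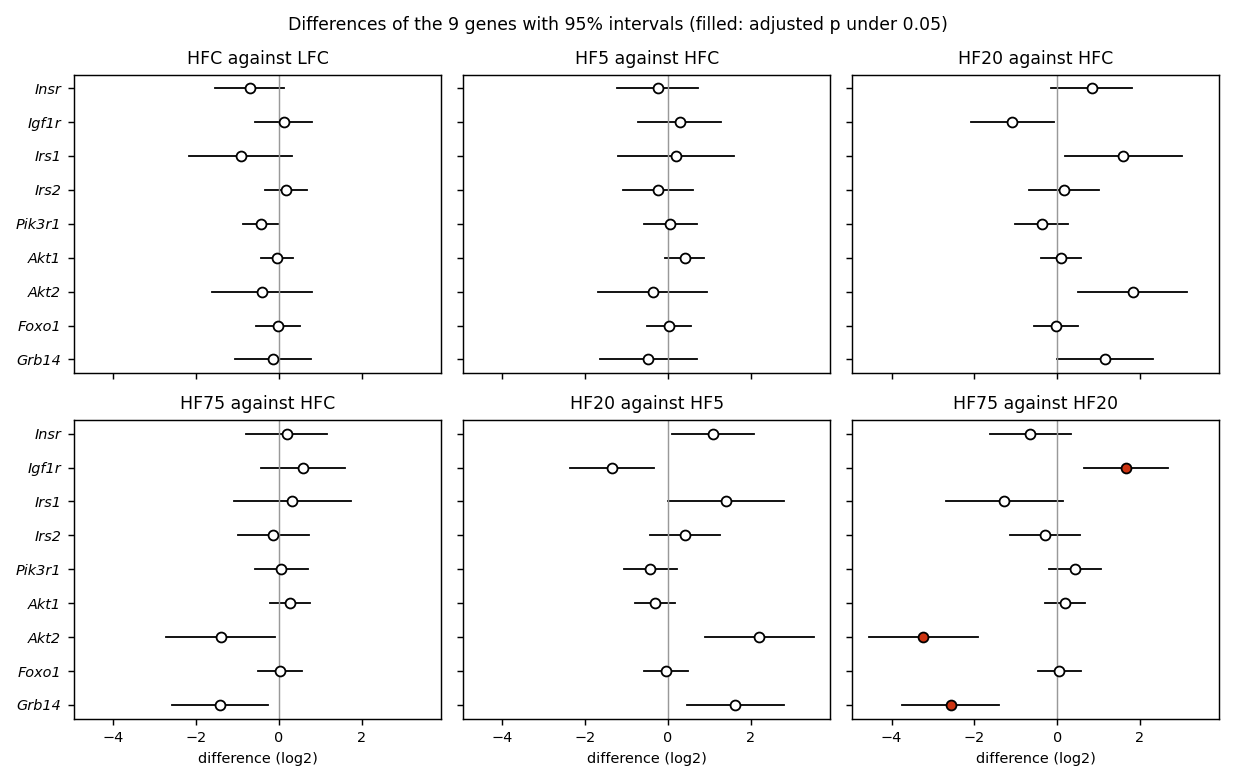
Mean log2 difference (x axis) of each of the 9 genes (circles, filled where the adjusted p was under 0.05) with its 95% interval (bars) in 6 of the comparisons, from the fits with time point as a block. The intervals of Akt2 and Grb14 in HF75 against HF20 lay below 0 and that of Igf1r above it, and these 3 circles are the filled ones.

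Other genes of the pathway were read from lists of 107 names, of which 104 were tested. In HFC against LFC 0 of the 104 passed, and the same was so for each dose against HFC, beside 0% of all genes in each. The list of insulin-responsive metabolic genes had the lowest median in HFC against LFC, at -0.94 over 13 genes against 0.06 over all genes. Of the 13 genes 12 were below 0, beside 44.7% of all genes. The same list had a median of 0.57 per doubling of brightness, with 8 of 13 called higher and 1 lower, and LFC held 4 bright arrays against 2 in HFC. With brightness as a covariate its median in HFC against LFC was -0.30. Its smallest p values were those of Acly, which makes cytosolic acetyl-CoA, at -2.04 and of Acaca, the first enzyme of fatty acid synthesis, at -2.30. Of the FOXO list, Pck1, an enzyme of glucose and glyceride-glycerol synthesis, was at 1.16, and Sesn1 at -0.57. Of the inhibitors Ptprf, a receptor phosphatase, was at -1.09 and Enpp1 at 0.51, and of the ligands and binding proteins Igfbp6 was at -0.58 and Igf1 at -0.41. Among phosphatidylinositol 3-kinase genes Pik3cd and Pik3cg, the catalytic subunits of blood cells, were at 0.55 and 0.54, among the kinases Rps6kb1 was at -0.57, and among the other receptors and adaptors Insrr was at 0.62 and Dok1 at 0.26. None of these differences passed, and every adjusted p was 0.643 or more.

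The same rule, the 2 smallest p values of each list, gave other names for the doses against HFC. At 5 µg Insrr, the orphan receptor of the insulin receptor family, was at -1.28, Foxo4 at -1.04 and Igfbp2 at -0.96. At 5 µg 10 of the 14 names were above 0, between 0.39 and 0.98: Slc2a1, Igf2r, Mapk3, Sesn1, Ptpn1, Igf1, Pik3r3, Pik3cb, Rps6 and Ptpn2. At 20 µg Slc2a4, the insulin-driven glucose transporter, was at 2.002 and Srebf1, the regulator of lipid synthesis, at 1.73. Depdc6, an inhibitor of mTOR, was at 1.66, Igf1 at 1.05, Akt1s1 at 0.98, Mlst8 at 0.77, Flot1 at 0.65 and Inppl1 at 0.62, while Gadd45a was at -1.72, Igf2 at -1.67, Pik3cg at -1.45, Foxo4 at -1.21, Insrr at -1.16 and Pik3r3 at -0.70. At 75 µg Gys1, the glycogen synthase of muscle and fat, was at -2.32, Fasn, the fatty acid synthase, at -1.21 and Akt1s1, an AKT substrate, at -0.96. The other 11 names at 75 µg were above 0, between 0.54 and 1.02: Pik3r3, Igf2r, Igfbp6, Igfbp3, Grb2, Phlpp2, Sesn1, Fbxo32, Ptpn1, Pik3cd and Prkcz. None passed the test. The metabolic list had a median of -0.14 at 5 µg, 1.73 at 20 µg and -1.10 at 75 µg, beside medians over all genes of 0.01, -0.20 and -0.03.

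In HF75 against HF20, 16 of the 104 pathway genes were called higher and 22 called lower, beside 25.6% of all genes called. The counts that follow are also of genes called at an adjusted p under 0.05. The list median was 0.11 and that of all genes 0.29. The metabolic list stood lowest, with a median of -2.39 and 10 of 13 genes called lower. The names in this comparison were chosen after their values were seen. Those called lower were Gys1 (-4.59), Mlxipl (-4.51), Acaca (-4.06), Lpin1 (-2.77), Hk2 (-2.62), Slc2a4 (-2.61), Pde3b (-2.39), Acly (-2.18), Srebf1 (-2.06) and Fasn (-1.09), and Slc2a1, the glucose transporter that most cells carry, was called higher (1.99). Of 19 inhibitors 5 were called higher, with Grb10, the close relative of Grb14, at 1.82 while Grb14 itself was lower, and Depdc6 was lower (-2.75). Of the 10 ligands and binding proteins 3 were called higher, Igf2 (2.29), Igfbp3 (1.75) and Igfbp7 (1.37). Of 23 downstream kinases and regulators 3 were called higher and 5 called lower, of 16 FOXO factors and targets 1 and 3, of 15 other receptors and adaptors 2 and 3, and of 8 phosphatidylinositol 3-kinase genes 1 and 0. With a background correction by normexp, with brightness as a covariate, or without the bright arrays, 0 of the 104 passed, and the metabolic median was -2.06, -1.52 and -0.49. The share of all genes that passed under these settings is not given here. The last of these left HF20 with only its arrays of weeks 9 and 18. Without the HF75 array of week 3 there were 3 genes called higher and 8 called lower.

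**Figure D5:**
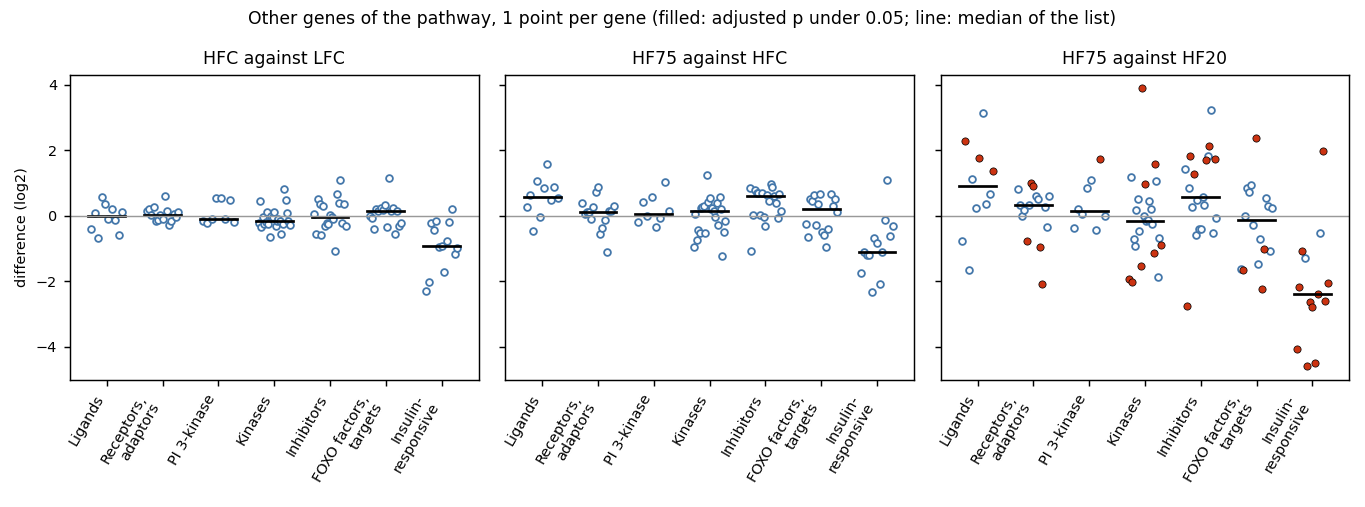
Log2 differences (y axis) of the pathway genes in 7 lists (x axis), with 1 point per gene, filled where the adjusted p was under 0.05, and a line at the median of the list, in HFC against LFC, HF75 against HFC and HF75 against HF20. The list of insulin-responsive metabolic genes had medians of -0.94, -1.10 and -2.39.

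Likeness between the genes over the 38 arrays is described by Pearson's r with no test, since the arrays share brightness and time. Akt2 and Grb14 had r = 0.87, Irs1 and Akt2 had r = 0.80, and Insr and Irs1 had r = 0.77. After the log2 of the 75th percentile was taken out of both genes, r was 0.83 for Akt2 with Grb14, 0.65 for Irs1 with Akt2 and 0.41 for Insr with Irs1. Igf1r had r = -0.83 with Akt2 and -0.84 with Grb14, and Akt1 with Foxo1 had r = 0.51. Insr with Akt2 fell from r = 0.53 to 0.05 once brightness was taken out. Irs2 and Pik3r1 followed none of the others, with r between -0.30 and 0.25. Over all genes the names most like Akt2 were Samm50, a part of the mitochondrial outer membrane's protein insertion machinery (r = 0.974), and Cebpa, an adipocyte transcription factor (r = 0.967). Grb14 was most like Mipep, a mitochondrial peptidase (r = 0.959), and Ccdc90a (r = 0.956). Igf1r was most like Zfp69 (r = 0.929) and Unc13b (r = 0.912), and Irs1 like Tspan3 (r = 0.943) and Gtlf3b (r = 0.939). The nearest to Insr were Cbwd1 (r = 0.874) and Gpr177 (r = 0.864), and to Akt1 Fam63a (r = 0.856) and Dennd5a (r = 0.841). Foxo1 was nearest to Atp10d (r = 0.771) and Ext1 (r = 0.693), Irs2 to Cd55 (r = 0.652) and Akap13 (r = 0.628), and Pik3r1 to Fam149a (r = 0.637) and Txnrd3 (r = 0.628).

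Akt2 and Grb14 were also set side by side at their promoters, because they were lower together in HF75 against HF20. RefSeq promoters on GRCm38.p6 matched 8 of the 9 genes with 13 starts, and the 250 bases before each start were searched on both strands for the GC box GGGCGG (reverse CCGCCC), for the FOXO motif TGTTTAC (reverse GTAAACA) and for the E-box CACGTG. Grb14 held 5 GC boxes and the first of 4 Akt2 starts held 1, and 32.7% of the 32851 promoters in the table hold at least 1. Each of the other 6 matched genes also held at least 1 GC box before a start, among them Igf1r with 2, Akt1 with 4 and Pik3r1 with 4, so the box does not set Akt2 and Grb14 apart. The FOXO motif, found in 3.17% of all promoters, was before 1 start of Akt1 and before none of Akt2 or Grb14, and the E-box, found in 6.02%, was before Irs1 and Irs2. A match is a description of letters and not of a site in use. The capitals below mark the GC boxes on either strand.
Akt2, GRCm38.p6 chr7:27591302-27591551, plus strand: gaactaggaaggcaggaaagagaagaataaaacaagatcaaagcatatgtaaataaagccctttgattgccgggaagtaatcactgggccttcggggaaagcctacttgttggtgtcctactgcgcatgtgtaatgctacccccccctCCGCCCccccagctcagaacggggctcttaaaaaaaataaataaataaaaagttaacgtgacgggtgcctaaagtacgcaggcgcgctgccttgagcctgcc
Grb14, GRCm38.p6 chr2:65022767-65023016, minus strand: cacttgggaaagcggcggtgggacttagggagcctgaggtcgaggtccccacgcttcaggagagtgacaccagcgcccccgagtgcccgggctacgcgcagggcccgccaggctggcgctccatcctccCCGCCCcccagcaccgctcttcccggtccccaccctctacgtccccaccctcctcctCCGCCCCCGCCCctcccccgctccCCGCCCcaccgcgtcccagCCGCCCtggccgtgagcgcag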

How the data were processed

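Total RNA was labelled with Cy3 and hybridised to custom mouse arrays with 1 colour, per the labels. The deposited scanner files hold intensity values per spot from Feature Extraction 10.5.1.1 (the submitters' notes name version 9.1), with background and spatial trend removed by the authors' software, beside the deposited flags (a unit of other) for spots well above background, saturated or outlying. In the deposited series table the authors give log2 ratios from GeneSpring to the LFC array of each time point. All 38 of its sample columns were matched to samples and 0 were not. Its Week 15 columns did not follow the scanner files by probe name, so that table served only as an alternative.

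Outlier spots were left out, spots of a probe were averaged, and the log2 of the array's 75th percentile was subtracted. A gene was its probe with the highest mean, and it was tested where that probe was well above background on at least 6 of 38 arrays. Fits used limma 3.58.1 in R 4.3.3, two-sided, with the time point as a block and Benjamini-Hochberg adjustment over 21862 genes at a threshold of 0.05. HFC against LFC used 20 arrays, the 10 group pairs 30 arrays (weeks 3 to 18), and the slope on dose order 24. Week n was taken as day 14 plus 7 times n. Group and time point came from the labels, which do not say that same-numbered arrays share an animal: the block stands for the shared time point and was part of the main design. The fit was tested on simulated data with independent noise and no differences in brightness. That test cannot show how brightness bears on the calls. The number of arrays limits the precision. With the block, p-values weigh a difference against how far it varies from time point to time point. The trend over days and the fit on brightness had no such block.

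The 9 genes, the pathway and marker lists and the tests were chosen with earlier results of these data known. Named were all 9 genes in every comparison, the pathway genes that passed in HFC against LFC or a dose against HFC, or else the 2 smallest p values of each list, and the 2 genes most like each of the 9 by Pearson's r. Some genes that this rule names are not reported here. Alternatives were quantile normalization, normexp with an offset of 50, the deposited table, other probe rules and filters, slide, scan day, array weights, brightness and muscle markers in the fit, no replicate block, sign flips, and leaving out each array or time point. Leaving out the bright arrays and a term for them were added after the data were seen.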

Additional observations from a re-analysis of the deposited data

Results flagged for a closer look

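Among 45 groups of values, 1 per gene and group, 3 held a sample far from the others, where chance gives about 1 in 20. Akt1 in LFC was highest at week 6 (log2 4.18), with the next array at 3.49 and a gap of 0.474 of the group's range. Insr in HF75 was lowest at week 9 (log2 -4.41), with the next array at -1.64 and a gap of 0.627 of the range, and its probe was not well above background on that array. Pik3r1 in HF5 was highest at week 12 (log2 1.66), with the next array at 0.46 and a gap of 0.67 of the range.

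The HF75 and HF20 groups differed, by limma's test of that difference, for 3 genes: Akt2 (difference -3.24, lower at 6 of 6 weeks), Grb14 (-2.58, lower at 6 of 6) and Igf1r (1.66, higher at 6 of 6). Against HFC none of the 9 genes passed at either dose. The 2 doses also differed in brightness, with 4 bright arrays of 6 in HF20 and 1 of 6 in HF75.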

How the results depend on the processing

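Over 6029 recomputed differences of single genes, 5938 kept their side of the threshold with no large move, of which 5500 also kept their direction and 438, none of them called, changed sign. Another 40 no longer passed, 26 newly passed, 25 moved and 0 called values reversed. Most of these differences were not called to begin with, so the tally says little about the 3 that were. Apart from leaving out arrays or time points, those 3 lost the threshold in 7 (Akt2), 7 (Grb14) and 8 (Igf1r) of 18 settings. For HF75 against HF20, where 3 of the 9 genes passed, the count was 0 under normexp, with the deposited table as it stands and without Week 15, with the brightness covariate, with a term for bright arrays, without the 11 bright arrays, and in exact sign flips over time points, whose smallest p of 0.03125 cannot pass after adjustment over all genes. Under normexp the differences were -2.46 for Akt2 and -2.17 for Grb14 (adjusted p = 0.0718 for both) and 0.99 for Igf1r (0.0833). With the table without Week 15 they were -3.10, -2.66 and 1.49 (adjusted p = 0.0788, 0.0788 and 0.105), and with the term for bright arrays -1.87, -1.64 and 0.73 (0.134, 0.205 and 0.387). Array weights left Igf1r at 1.40 (adjusted p = 0.0562). The cause of the losses was not tested. For the settings of this section the share of all genes called is not given, so the counts do not show whether a loss was particular to these genes.

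The F test over the doses, with 3 genes, gave 0 under normexp, both forms of the table, no filter on dim probes, array weights, the brightness covariate, the term for bright arrays and without the bright arrays. The pairs of groups beyond HFC against LFC and the doses against HFC gave 3 calls in all: 0 under normexp, both forms of the table, the brightness covariate, the term for bright arrays, without the bright arrays and in sign flips, and 6 with probes above background on every array and with slide as a random block, which add Akt2, Grb14 and Igf1r in HF20 against HF5 (3 there, where the main count is 0). Normexp gave 1 call in the trend over days, Akt1. Leaving out 1 array or time point gave 0 to 3 for HF75 against HF20, 0 to 4 for the F test, 0 to 4 for HF20 against HF5 (4 without Week 9), 0 to 7 for those pairs together, and 0 to 1 for HF20 against HFC, where Akt2 passed without Week 3. Without a replicate block HF75 against HF20 again gave 3 genes, the same ones. Signal over background limits Insr at 4 arrays and Irs1 at 1.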
